A study of Mus musculus with 7 samples.

Results

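Ribosome biogenesis and nucleolar genes were followed in CD8 T cells sorted from tumours of mice with and without the nucleoside transporter ENT1. The set holds 36 genes, listed by symbol as rRNA transcription, processing and assembly factors together with their regulator Myc. All 36 had an entry in the expression table of 55357 genes, and all 36 reached at least 1 TPM (a measure per transcript length in which every library has an equal sum) in at least 3 samples, as did 13798 genes in all. The 4 ENT1KO samples (replicates 11, 12, 14 and 15) came from Slc29a1-/- hosts and the 3 WT samples (replicates 1, 2 and 3) from C57Bl/6 hosts. Both groups carried MCA205, a transplantable mouse fibrosarcoma, under the skin, and live CD45+ CD8+ cells were sorted from the tumours on day 14. Slc29a1 encodes ENT1, a membrane protein through which adenosine and related nucleosides enter and leave cells. The transporter was lacking in the whole host, and the labels give neither the age of the mice nor a deletion limited to T cells. The tumour cells were the same line in both groups. Libraries were made by poly(A) selection from 75 ng of RNA, and gene-assigned reads lay between 18624318 and 19660792 per library. The labels do not say whether each sample was a separate animal or a pool, so the spread behind each p-value is that of 7 samples and may in part be technical.

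Ribosome production begins in the nucleolus, where RNA polymerase I transcribes the rRNA precursor. Small nucleolar ribonucleoproteins (snoRNPs) of the box C/D class guide 2'-O-methylation of that RNA, and those of the box H/ACA class guide its pseudouridylation. Separate sets of assembly factors then cleave, fold and export the precursors of the small and the large subunit. Activated T cells enlarge and make many new ribosomes before they divide, and the transcription factor MYC, which binds the E-box sequence CACGTG together with MAX, is a known driver of many of these genes. Ribosome production also draws heavily on purine and pyrimidine nucleotides for rRNA.

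The promoter windows of 5 genes are shown because the results below turn on them. Wdr43 was higher in ENT1KO samples on TPM but did not pass on the other deposited scale, and Nop16 and Gar1 were lower on both. Dkc1 and Gar1 encode partners in 1 complex. Their ratio did not overlap between the groups, but it did not pass after adjustment. Nop2 is a second example with an E-box. Each window is the RefSeq sequence from 250 bases before to 50 bases after the annotated start of the gene in build GRCm38.p6, written 5' to 3' on the gene's own strand. Capitals mark each copy of CACGTG.
Wdr43: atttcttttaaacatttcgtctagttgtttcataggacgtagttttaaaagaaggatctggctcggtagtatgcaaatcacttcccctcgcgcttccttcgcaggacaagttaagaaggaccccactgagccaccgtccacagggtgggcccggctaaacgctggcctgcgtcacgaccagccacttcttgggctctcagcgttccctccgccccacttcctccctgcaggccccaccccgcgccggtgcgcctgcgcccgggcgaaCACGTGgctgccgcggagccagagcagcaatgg
Nop2: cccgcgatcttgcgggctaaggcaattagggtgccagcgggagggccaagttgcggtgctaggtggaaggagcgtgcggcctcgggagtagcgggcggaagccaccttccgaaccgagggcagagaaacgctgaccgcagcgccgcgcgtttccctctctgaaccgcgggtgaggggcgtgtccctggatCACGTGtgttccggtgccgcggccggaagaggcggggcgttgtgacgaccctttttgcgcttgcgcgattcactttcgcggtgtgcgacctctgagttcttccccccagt
Nop16: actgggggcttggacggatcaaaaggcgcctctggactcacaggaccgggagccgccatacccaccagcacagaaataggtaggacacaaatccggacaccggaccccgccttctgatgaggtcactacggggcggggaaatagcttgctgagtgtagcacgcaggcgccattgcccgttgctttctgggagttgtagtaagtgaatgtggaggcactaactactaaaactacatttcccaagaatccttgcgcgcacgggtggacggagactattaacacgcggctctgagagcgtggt
Gar1: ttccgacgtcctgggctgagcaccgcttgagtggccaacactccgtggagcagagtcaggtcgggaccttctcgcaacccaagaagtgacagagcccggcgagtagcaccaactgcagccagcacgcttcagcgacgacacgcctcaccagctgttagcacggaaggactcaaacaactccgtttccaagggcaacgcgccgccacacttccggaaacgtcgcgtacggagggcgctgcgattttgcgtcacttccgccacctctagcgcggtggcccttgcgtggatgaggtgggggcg
Dkc1: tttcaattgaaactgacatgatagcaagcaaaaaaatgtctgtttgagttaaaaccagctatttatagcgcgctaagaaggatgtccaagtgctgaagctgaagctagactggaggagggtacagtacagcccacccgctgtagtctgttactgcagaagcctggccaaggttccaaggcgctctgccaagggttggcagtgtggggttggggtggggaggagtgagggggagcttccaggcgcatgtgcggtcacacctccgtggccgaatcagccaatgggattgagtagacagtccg
The windows lie at chr17:71615965-71616264 on the plus strand for Wdr43, chr6:125131633-125131932 on the plus strand for Nop2, chr13:54590025-54590324 on the minus strand for Nop16, chr3:129831347-129831646 on the minus strand for Gar1 and chrX:75095604-75095903 on the plus strand for Dkc1. The motif starts at base 18 after the start in Wdr43 and 60 bases before it in Nop2, and the other 3 windows hold no copy.

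CACGTG reads the same on both strands, so 1 search covers both. Of the 36 genes, 30 had a window in the RefSeq table, and 8 of these 30 (26.7%) held the motif: Grwd1, Ltv1, Mybbp1a, Nop2, Pes1, Tsr1, Utp4 and Wdr43. The motif was in 8.09% of genes over all listed promoters, in 11.6% of all tested genes with a window and in 18.03% of other ribosome biogenesis genes. Counted per window of that length, the shares were 24.24% for the set and 17.73% for other ribosome biogenesis genes. They were 9.75% for all tested genes and 7.15% over all listed promoters. The 8 genes with the motif had no common direction between the genotypes: 3 had a positive and 5 a negative log2 difference on TPM. Of the 8, Wdr43 alone passed the test described next on TPM. On the normalized counts described below the 8 signs were the same, but Wdr43 did not pass and Nop2, Pes1 and Utp4 passed as lower. On that scale 28.0% of all tested genes were lower.

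As a set, the ribosome biogenesis genes differed little between ENT1KO and WT samples. By limma-trend on log2(TPM + 1), with Benjamini-Hochberg adjustment over all tested genes and a threshold of 0.05, 3 of 36 were higher in ENT1KO (Ddx21, Gnl3 and Wdr43) and 3 were lower (Gar1, Nip7 and Nop16). In the same test 50.6% of all genes passed, 27.5% higher and 23.1% lower, beside 16.7% of the ribosome biogenesis genes. The log2 difference, ENT1KO minus WT, ran between -0.64 and 0.48 over the 36 genes. It was positive for 23 genes and negative for 13, with a median of 0.11, beside 0.15 for all tested genes. Its size was under 0.5 for 35 of the 36 genes (97.2%) and for 52.2% of all tested genes. All 6 genes that passed differed by less than 2-fold. With 1 library left out, 1 to 6 of the 36 genes were higher and 1 to 6 lower: 6 higher and 1 lower without ENT1KO replicate 12, 1 and 6 without ENT1KO replicate 14, 5 and 2 without WT replicate 3, 2 and 4 without WT replicate 1, 2 and 1 without ENT1KO replicate 11, and 1 and 1 without ENT1KO replicate 15 or WT replicate 2.

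All 36 genes were well covered. The lowest level of any of the 36 genes in any library was 7.79 TPM (Rrp12 in WT replicate 1), and reads per gene and library ran between 316 (Grwd1) and 27687 (Ncl). In 26 of 36 genes the ENT1KO and WT libraries overlapped in TPM. All ENT1KO libraries were above all WT libraries for 6 genes and below them for 4, beside 30.3% and 24.9% of all tested genes (55.2% in either direction). The 6 were Polr1a, Ddx21, Ncl, Dkc1, Ltv1 and Wdr43, and the 4 were Gar1, Nip7, Nop16 and Utp4.

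**Figure D1:**
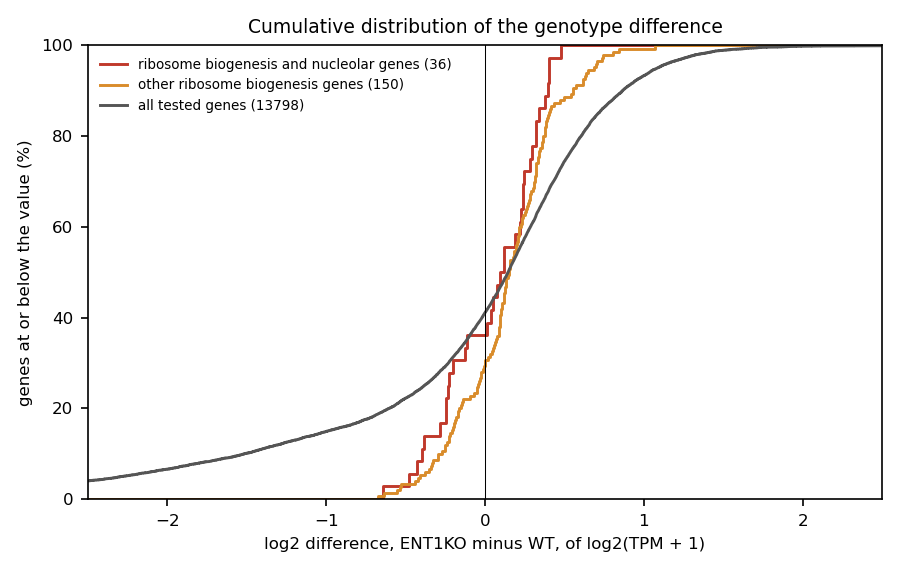
Cumulative share of genes (%) against the log2 difference, ENT1KO minus WT, of log2(TPM + 1), for the 36 ribosome biogenesis and nucleolar genes, 150 other ribosome biogenesis genes and all 13798 tested genes. The curve of the 36 genes rises between -0.64 and 0.48, while the curve of all genes extends past the plotted range at both ends.

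The direction of small differences depended on the scale. The authors' second table holds read counts divided by a size factor, and on log2 of these normalized counts plus 1 the same test called 0 of the 36 genes higher and 8 lower, against 21.0% higher and 28.0% lower among all tested genes. The median of all genes was lower by 0.145 on that scale than on TPM, and the median of the 36 genes was -0.04. The 8 were Gar1, Nip7, Nop16, Bop1, Pes1, Nop2, Mrto4 and Utp4. Gar1, Nip7 and Nop16 passed on both scales, and Ddx21, Gnl3 and Wdr43 passed on TPM only. In the authors' deposited table of the comparison 0 of the 36 genes were higher and 9 were lower at an adjusted p under 0.05 (Gar1, Nhp2, Bop1, Nip7, Nop16, Nop2, Pes1, Utp4 and Mybbp1a), beside 16.5% higher and 25.8% lower among the 18878 genes with a value.

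The targeted gene and the markers of fibroblast and tumour cells, macrophages and CD8 T cells differed widely between the groups. Slc29a1 itself had 13.6, 13.2, 17.6 and 15 TPM in ENT1KO replicates 11, 12, 14 and 15, against 51.0, 58.9 and 49.7 TPM in WT replicates 1, 2 and 3 (log2 difference -1.78, limma-trend adjusted p = 0.00121). Summed over 18 fibroblast and tumour cell markers, expression lay between 7.32 and 919 TPM in ENT1KO libraries, against 4401 to 8336 TPM in WT libraries, and all 18 were lower in ENT1KO. Of 15 macrophage and monocyte markers, 14 were tested and all 14 were lower, with sums of 118 to 1347 TPM in ENT1KO and 3566 to 5334 TPM in WT libraries. All 14 markers of CD8 T cell identity were higher, with sums of 9141 to 11240 TPM in ENT1KO and 2861 to 6915 TPM in WT libraries. No gene of these 3 lists was at 0 in all libraries. In further lists, all 6 endothelial, all 6 erythroid and platelet and 7 of 8 neutrophil and mast cell markers tested were lower. Of dendritic and NK cell markers 4 of 10 and 4 of 7 were lower and 0 higher. Keratinocyte and epithelial (1 higher and 2 lower of 5), B and plasma (2 and 1 of 3) and CD4 and regulatory T cell markers (1 and 2 of 5) went both ways. A further limma-trend fit took the mean log2 level of the fibroblast and tumour markers in each library as a covariate. It called 0 of the 36 genes in either direction (1 at an unadjusted p under 0.05). Of all tested genes it called 0 (1281 at an unadjusted p under 0.05), so Slc29a1 was not called either. All 18 markers were without overlap between the genotypes, so this fit could hardly separate genotype from the covariate. Ribosome biogenesis genes are used by every growing cell type, and in sorted bulk RNA, fewer cells of a type and less RNA per cell cannot be told apart. The part of these other cells in the values below was not tested.

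Set against the mean log2 level of the CD8 identity markers in each library, all 36 genes were lower in ENT1KO, by a log2 difference of -1.83 to -0.71. The median of the 36 genes on that scale was -1.08, and that of all tested genes was -1.05. Directions given below are therefore relative to total RNA (TPM), and not to the T cell genes.

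Myc did not pass the test and had the widest spread of the 36 genes among ENT1KO libraries (coefficient of variation 35.4%, beside a median of 14.4% over the set). It had 29.8, 51.5, 73.5 and 68.6 TPM in ENT1KO replicates 11, 12, 14 and 15, against 47.9, 41.3 and 39.9 TPM in WT replicates 1, 2 and 3. The groups overlapped, because ENT1KO replicate 11 was below every WT library and the other 3 ENT1KO libraries were above. The log2 difference was 0.29 (SE 0.29, limma-trend adjusted p = 0.411). Without ENT1KO replicate 11 the difference was 0.56 and passed (limma-trend adjusted p = 0.0308).

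Of 12 listed partners and antagonists of MYC, 10 were tested, 4 were higher and 1 was lower (limma-trend). That share of 50% is at the background of 50.6% of all tested genes, and the 5 are named here after their values were seen. Max, the obligate dimer partner, had 123.9, 166, 121 and 115 TPM in ENT1KO libraries, against 83.7, 71.1 and 84.1 TPM in WT libraries, a log2 difference of 0.71 (limma-trend adjusted p = 0.00569). The groups did not overlap. Mxi1, a MAX-binding repressor, had 19.7, 20.5, 16.9 and 18.4 TPM in ENT1KO libraries, against 37.7, 41.5 and 35.6 TPM in WT libraries, a log2 difference of -0.98 (limma-trend adjusted p = 0.00121). Again no ENT1KO library reached a WT library. The MAX-binding protein Mga (0.96), the glucose-sensing factor Mlxip (0.86) and the repressor Mxd4 (0.67) were higher in ENT1KO by these log2 differences, with limma-trend adjusted p of 0.00454, 0.00419 and 0.0337.

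The 3 genes of the set for RNA polymerase I and its cofactors did not pass the test. Polr1a, which encodes the largest subunit, had 20.6, 20.3, 24.2 and 22.8 TPM in ENT1KO libraries, against 19.6, 16.2 and 19.3 TPM in WT libraries. All ENT1KO libraries were above all WT libraries, but by a narrow margin (log2 difference 0.25, SE 0.12, limma-trend adjusted p = 0.108). Polr1b, the second largest subunit, overlapped between groups (0.23, adjusted p = 0.216 by limma-trend), and so did Mybbp1a, a nucleolar protein that associates with the polymerase (-0.13, adjusted p = 0.501 by limma-trend). The ratio of Polr1b to Polr1a within a library averaged 0.767 ± 0.0974 in ENT1KO (SD, n = 4) and 0.776 ± 0.0853 in WT libraries (SD, n = 3). Outside the set, and named after their values were seen, the subunit Polr1f was higher (log2 difference 0.55, limma-trend adjusted p = 0.0119). Polr1c, Polr1d, Polr1e and Polr1h did not pass. Of further factors of this polymerase, Taf1b (0.70), Taf1d (0.65) and Ubtf (0.38) were higher (limma-trend adjusted p = 0.00301, 0.00704 and 0.0207). Taf1a, Taf1c and Rrn3 did not pass. The shared subunit Polr2f was lower (described below).

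Among the 5 abundant nucleolar proteins all log2 differences were positive and 2 passed. Ddx21, an RNA helicase that acts in rRNA transcription and processing (ENSMUSG00000020075.9, chr10:62416030-62438060, GRCm39), had 113, 104, 129 and 111 TPM in ENT1KO libraries, against 82.4, 74.8 and 103 TPM in WT libraries. The lowest ENT1KO library stood just above the highest WT library. The means were 114 ± 10.4 TPM in ENT1KO (SD, n = 4) and 86.6 ± 14.4 TPM in WT (SD, n = 3), giving a log2 difference of 0.41 (SE 0.13, limma-trend adjusted p = 0.0334). Gnl3, which encodes the nucleolar GTP-binding protein nucleostemin (ENSMUSG00000042354.8, chr14:30734390-30741109, GRCm39), had 107.9, 76.6, 116 and 93.0 TPM in ENT1KO libraries, against 82.1, 66.0 and 61.8 TPM in WT libraries. ENT1KO replicate 12 fell below WT replicate 1, so the groups overlapped. The log2 difference was 0.48 (SE 0.17, limma-trend adjusted p = 0.0411). On normalized counts neither passed, at 0.26 for Ddx21 and 0.23 for Gnl3 (limma-trend adjusted p = 0.0915 and 0.243). Ddx21 did not pass without any 1 of ENT1KO replicates 11, 14 and 15 and WT replicates 1 and 2 (limma-trend adjusted p = 0.0583 to 0.1099), nor Gnl3 without any 1 of ENT1KO replicates 11, 14 and 15 and WT replicates 2 and 3 (0.0646 to 0.115).

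Ncl and Npm1, which encode nucleolin and nucleophosmin, were the 2 most abundant transcripts of the set. Ncl had 539, 489.9, 591 and 593 TPM in ENT1KO libraries, against 485, 433 and 484 TPM in WT libraries. The groups stood apart only narrowly, and the log2 difference of 0.24 did not pass (limma-trend adjusted p = 0.0916). Npm1 had 1247, 1122, 1419 and 1395 TPM in ENT1KO libraries, against 1279, 1132 and 1216 TPM in WT libraries. The 3 WT libraries lay within the ENT1KO range (log2 difference 0.10, limma-trend adjusted p = 0.499). Nolc1, a chaperone of snoRNPs, averaged 57.5 TPM in ENT1KO and 56.7 TPM in WT libraries, and its small difference of 0.01 turned negative on normalized counts (-0.21) and under quantile normalization (-0.13). Npm1 likewise turned negative on those scales (-0.08 and -0.20).

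**Figure D2:**
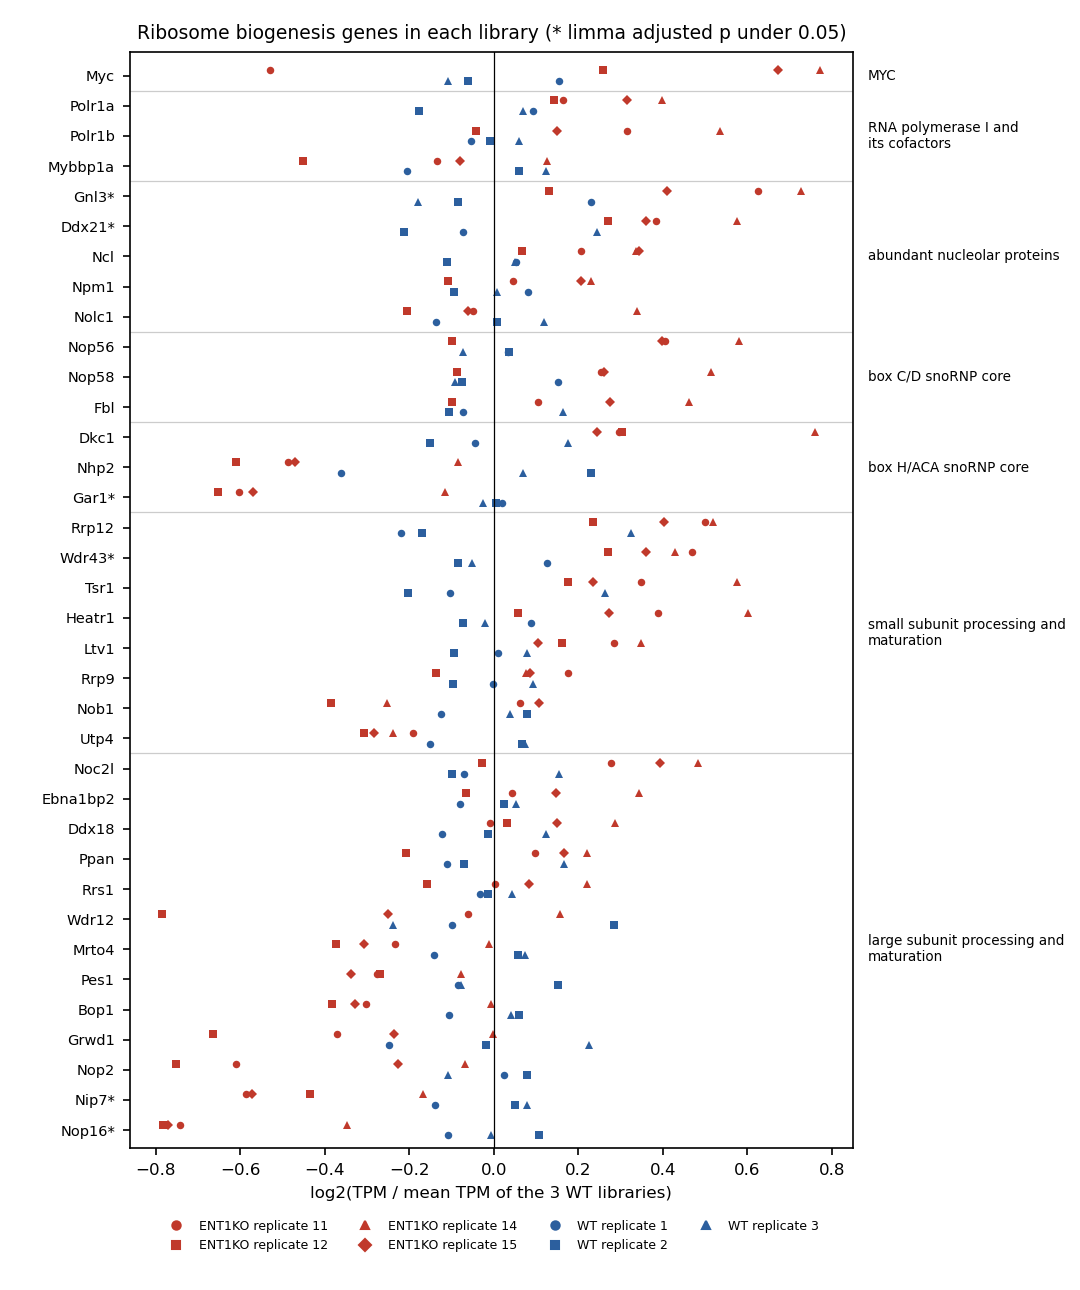
Each of the 36 genes in each library, as log2 of TPM over the mean TPM of the 3 WT libraries (x axis), grouped by role (right) and ordered within each role by the genotype difference. Red symbols are the 4 ENT1KO libraries and blue symbols the 3 WT libraries, with a symbol shape per replicate, and stars mark the 6 genes that passed. ENT1KO replicate 14 (red triangle) is the highest ENT1KO library for 31 genes and replicate 12 (red square) the lowest for 30.

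Nop56, Nop58 and Fbl, the 3 core proteins of box C/D snoRNPs in the set, did not pass the test. The core protein outside the set, Snu13, was lower in ENT1KO and is described with the other ribosome biogenesis genes. Among ENT1KO libraries Nop56, Nop58 and Fbl were highest in replicate 14 and lowest in replicate 12. Nop56 had 305, 215, 344 and 303 TPM in ENT1KO libraries, against 235, 236 and 219 TPM in WT libraries. ENT1KO replicates 11, 14 and 15 were above WT and replicate 12 was below it (log2 difference 0.32, limma-trend adjusted p = 0.124), and without that library the difference was 0.46 and passed (limma-trend adjusted p = 0.0174). Nop58, its paralogue in the same particle, and Fbl, the fibrillarin methyltransferase, had log2 differences of 0.24 and 0.19 (limma-trend adjusted p = 0.209 and 0.307). Their ratios were near those of WT. Nop56 to Fbl averaged 1.92 ± 0.167 in ENT1KO (SD, n = 4) and 1.76 ± 0.243 in WT (SD, n = 3), and Nop58 to Fbl averaged 1.72 ± 0.0864 in ENT1KO and 1.67 ± 0.275 in WT, with exact two-sided permutation p = 0.4 and 0.771 over 35 possible assignments of the genotypes.

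The 3 box H/ACA core genes of the set had differences of both signs. Gar1 (ENSMUSG00000028010.17, chr3:129618561-129625045, GRCm39), a core protein of the particle, had 44.4, 42.9, 62.2 and 45.4 TPM in ENT1KO libraries, against 68.4, 67.7 and 66.2 TPM in WT libraries. Every ENT1KO library was below every WT library, and replicate 14 was nearest to WT. The means were 48.8 ± 9.05 TPM in ENT1KO (SD, n = 4) and 67.5 ± 1.09 TPM in WT (SD, n = 3), giving a log2 difference of -0.48 (SE 0.14, limma-trend adjusted p = 0.0214). The authors' deposited table lists -0.50 as its log2 fold change and 0.00777 as its adjusted p. The limma-trend adjusted p was between 0.0504 and 0.0581 without any 1 of ENT1KO replicates 11, 12 and 15 and WT replicates 1 and 2, with differences of -0.47 to -0.42.

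Nhp2, another core protein, had 59.7, 54.8, 78.9 and 60.4 TPM in ENT1KO libraries, against 65.2, 98.1 and 87.7 TPM in WT libraries. ENT1KO replicate 14 overlapped with WT replicate 1, and the log2 difference of -0.39 did not pass (limma-trend adjusted p = 0.0933). It was -0.49 without ENT1KO replicate 14 and -0.55 without WT replicate 1, and passed in both cases (limma-trend adjusted p = 0.0395 and 0.0318). Dkc1, which encodes the pseudouridine synthase dyskerin at the centre of the particle, had 66.6, 66.9, 91.9 and 64.3 TPM in ENT1KO libraries, against 52.6, 48.8 and 61.3 TPM in WT libraries. All ENT1KO libraries were above all WT libraries, yet the difference of 0.40 missed the threshold (limma-trend adjusted p = 0.0524) and passed without WT replicate 3 (0.49, limma-trend adjusted p = 0.0404). Nop10, the core protein of the particle that is outside the set and is named here after its values were seen, had 64.2, 61.4, 77.5 and 62.5 TPM in ENT1KO libraries, against 46.8, 44.0 and 58.8 TPM in WT libraries. It too was higher in every ENT1KO library than in the highest WT library, and it passed (log2 difference 0.41, limma-trend adjusted p = 0.0329). In the authors' deposited table its log2 fold change of 0.27 did not pass (adjusted p = 0.167).

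Set against Dkc1 in the same library, Gar1 and Nhp2 were lower in ENT1KO in every comparison of libraries. The ratio of Gar1 to Dkc1 was 0.667, 0.642, 0.677 and 0.706 in ENT1KO replicates 11, 12, 14 and 15, against 1.299, 1.39 and 1.08 in WT replicates 1, 2 and 3. The ratio of Nhp2 to Dkc1 was 0.896, 0.820, 0.859 and 0.938 in ENT1KO, against 1.24, 2.01 and 1.43 in WT. The ENT1KO libraries lay close together in both ratios and the WT libraries lay apart from them and from each other. The log2 differences were -0.89 (SE 0.10) and -0.80 (SE 0.18), each with an exact two-sided permutation p = 0.0286, the smallest that 35 assignments allow, and 0.0762 after adjustment over the 8 ratios compared. Both ratios share Dkc1 as their denominator, so they are not separate observations.

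The size of that difference depended on the deposited unit. On normalized counts the log2 difference of the Gar1 to Dkc1 ratio was -0.52, and that of Nhp2 to Dkc1 was -0.52 as well (exact permutation p adjusted over the 8 ratios 0.114 for each). Dkc1 was the 1 gene of the 36 whose difference moved by more than 0.2 between the deposited units beyond the median of all genes, as 29.2% of all tested genes did. Its normalized count per TPM, scaled to a WT mean of 1, was 0.879, 0.762, 0.894 and 0.957 in ENT1KO libraries and 1.002, 1.05 and 0.944 in WT libraries. In ENT1KO libraries this measure averaged 0.873 for Dkc1, and it moved the other way for Gar1 (1.12) and Nhp2 (1.06). On normalized counts the difference of Dkc1 itself was 0.02.

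Of the remaining ratios, that of Ncl to Npm1 compares 2 abundant nucleolar proteins. It was 0.432, 0.437, 0.416 and 0.425 in ENT1KO libraries, against 0.379, 0.382 and 0.399 in WT libraries. The groups did not overlap, and the log2 difference was 0.14 (SE 0.03, exact permutation p = 0.0286, 0.0762 adjusted over the 8). Bop1 to Pes1, partners in a large subunit complex, averaged 0.501 in ENT1KO and 0.507 in WT libraries (exact permutation p = 0.771). None of the 8 ratios passed after adjustment.

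**Figure D3:**
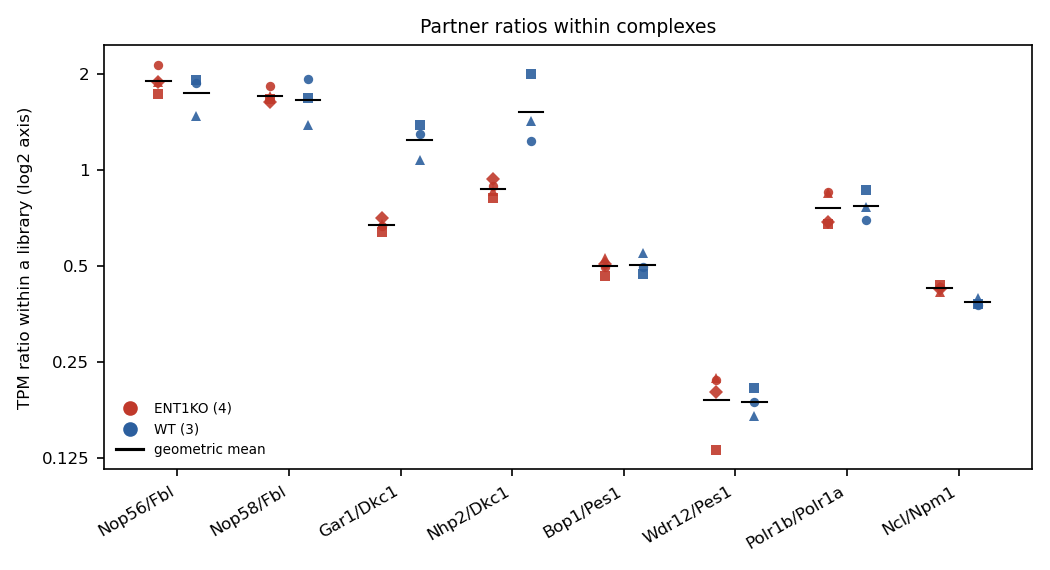
TPM ratio of 8 gene pairs within each library on a log2 axis, with ENT1KO (4 libraries, red) left of WT (3 libraries, blue), a symbol shape per replicate as in the plot of genes by library, and bars at the geometric mean. Gar1 to Dkc1 lies between 0.642 and 0.706 in ENT1KO and between 1.08 and 1.39 in WT libraries, and Nhp2 to Dkc1 shows the same order.

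Of the 8 small subunit factors 1 passed. Wdr43, a component of the small subunit processome that acts early on the rRNA precursor (ENSMUSG00000041057.11, chr17:71922890-71966026, GRCm39), had 112, 97.3, 109 and 104 TPM in ENT1KO libraries, against 88.1, 76.1 and 77.8 TPM in WT libraries. No WT library reached an ENT1KO library. The means were 105 ± 6.29 TPM in ENT1KO (SD, n = 4) and 80.7 ± 6.49 TPM in WT (SD, n = 3), giving a log2 difference of 0.38 (SE 0.10, limma-trend adjusted p = 0.0142). On normalized counts it was 0.13 and did not pass (limma-trend adjusted p = 0.197).

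The other 7 small subunit factors stood on both sides of 0. Rrp12, which acts in export of the precursors, had 12.8, 10.7, 13.0 and 12 TPM in ENT1KO libraries, against 7.79, 8.06 and 11.4 TPM in WT libraries, and overlapped at WT replicate 3 (log2 difference 0.40, limma-trend adjusted p = 0.0656). Tsr1 (0.34), Heatr1 (0.32) and Ltv1 (0.22), factors of small subunit processing and late maturation, had positive log2 differences that did not pass. Without WT replicate 3, Rrp12 (0.55) and Tsr1 (0.47) passed, and without ENT1KO replicate 12, Heatr1 (0.41) passed (limma-trend adjusted p = 0.0162, 0.0250 and 0.0359). Rrp9, a protein of the snoRNP that initiates processing of the small subunit rRNA, was at 0.05, and Nob1, the endonuclease of the last cleavage, was at -0.11. Utp4, a processome component and, with Nob1, 1 of the 2 with a negative difference, had 32.4, 29.9, 31.4 and 30.4 TPM in ENT1KO libraries, against 33.3, 38.8 and 38.9 TPM in WT libraries. All ENT1KO libraries were below all WT libraries, with a log2 difference of -0.24 (limma-trend adjusted p = 0.0644), and without WT replicate 1 it was -0.32 and passed (limma-trend adjusted p = 0.0386).

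Of the 13 large subunit factors 2 passed, both lower in ENT1KO. Nop16, a protein of the nucleolar large subunit precursor, had the largest difference of the 36 genes and was the only one of the 6 that passed in the full data to pass under each of 14 alternative settings, which do not include the covariates above (ENSMUSG00000025869.12, chr13:54731998-54737903, GRCm39). It had 26.8, 26.1, 35.3 and 26.3 TPM in ENT1KO libraries, against 41.6, 48.3 and 44.7 TPM in WT libraries. The highest ENT1KO library stayed below the lowest WT library. The means were 28.6 ± 4.44 TPM in ENT1KO (SD, n = 4) and 44.9 ± 3.37 TPM in WT (SD, n = 3), giving a log2 difference of -0.64 (SE 0.13, limma-trend adjusted p = 0.00549). The authors' deposited table lists -0.81 as its log2 fold change and 0.000126 as its adjusted p.

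Nip7, which is needed for maturation of the large subunit (ENSMUSG00000031917.13, chr8:107783509-107787563, GRCm39), had 45.95, 51.0, 61.4 and 46.4 TPM in ENT1KO libraries, against 62.6, 71.4 and 72.8 TPM in WT libraries. The groups did not overlap, although ENT1KO replicate 14 came close to WT replicate 1. The log2 difference was -0.43 (SE 0.13, limma-trend adjusted p = 0.0225). Without any 1 of ENT1KO replicates 11, 12 and 15 and WT replicates 2 and 3 the limma-trend adjusted p was between 0.0504 and 0.0647, with differences of -0.43 to -0.38.

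The other 11 large subunit factors did not pass, and 6 of them had a negative difference. Nop2, an rRNA cytosine methyltransferase, had 18.6, 16.9, 27.1 and 24.3 TPM in ENT1KO libraries, against 28.9, 30.0 and 26.4 TPM in WT libraries (log2 difference -0.39, limma-trend adjusted p = 0.0821). Replicate 14 was within the WT range and the other ENT1KO libraries were below it, and without replicate 14 the difference was -0.50 and passed (limma-trend adjusted p = 0.0326). The 3 proteins that form a complex needed for processing of the large subunit rRNA were at -0.25 for Bop1, -0.23 for Pes1 and -0.20 for Wdr12 (limma-trend adjusted p = 0.105, 0.1004 and 0.463). Bop1 passed without ENT1KO replicate 14 (-0.33, limma-trend adjusted p = 0.0377). On normalized counts Bop1 was at -0.45 and Pes1 at -0.40, and both passed (limma-trend adjusted p = 0.0272 for each), as did Nop2 at -0.55 and Mrto4 at -0.40 (0.0378 and 0.0497). Grwd1, a chaperone for a ribosomal protein, was at -0.29 and Mrto4, a paralogue of a ribosomal stalk protein, at -0.22. Noc2l (0.28), the helicase Ddx18 (0.12), Ebna1bp2 (0.12), Ppan (0.07) and Rrs1 (0.04) had positive differences, none of which passed in all libraries, and the last 3 turned negative on normalized counts (-0.10, -0.02 and -0.13). Noc2l passed without ENT1KO replicate 12 (0.38, limma-trend adjusted p = 0.0381).

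The ENT1KO libraries differed among themselves in the same order for most of the 36 genes. Replicate 14 was above replicate 12 for 36 of 36 genes, beside 54.9% of all tested genes, with a median log2 ratio of 0.41 between them, beside 0.04 for all tested genes. Summed over the 36 genes, expression was 3990, 3510, 4632 and 4234 TPM in ENT1KO replicates 11, 12, 14 and 15, against 3798, 3629 and 3831 TPM in WT replicates 1, 2 and 3. The WT libraries lay within the ENT1KO range. The range of log2 values within a group was wider in ENT1KO than in WT for 29 of 36 genes, although the ENT1KO group also had 1 library more. Its median was 0.42 in ENT1KO and 0.23 in WT, while over all tested genes the medians were 0.43 and 0.45.

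Cell cycle lists varied between the same libraries. The sum over 20 S phase genes was 1210, 1167, 1695 and 1664 TPM in ENT1KO replicates 11, 12, 14 and 15, against 1384, 1281 and 1364 TPM in WT replicates 1, 2 and 3. Replicates 14 and 15 were highest in both this sum and the ribosome biogenesis sum, and replicate 12 was lowest in both. The sum over 20 G2 and mitosis genes was 443, 510, 658 and 817 TPM in ENT1KO, against 831, 927 and 678 TPM in WT libraries. Of the S phase genes 0 were higher and 1 was lower (limma-trend), and of the G2 and mitosis genes 0 were higher and 8 were lower. The lower shares were 5% and 40%, beside 23.1% of all tested genes, and 27.5% of all tested genes were higher. Replicate 14 also had the highest fibroblast and tumour sum (919 TPM) and macrophage sum (1347 TPM) of the ENT1KO libraries. The part of cycling and of other cells in the order of libraries was not tested.

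**Figure D4:**
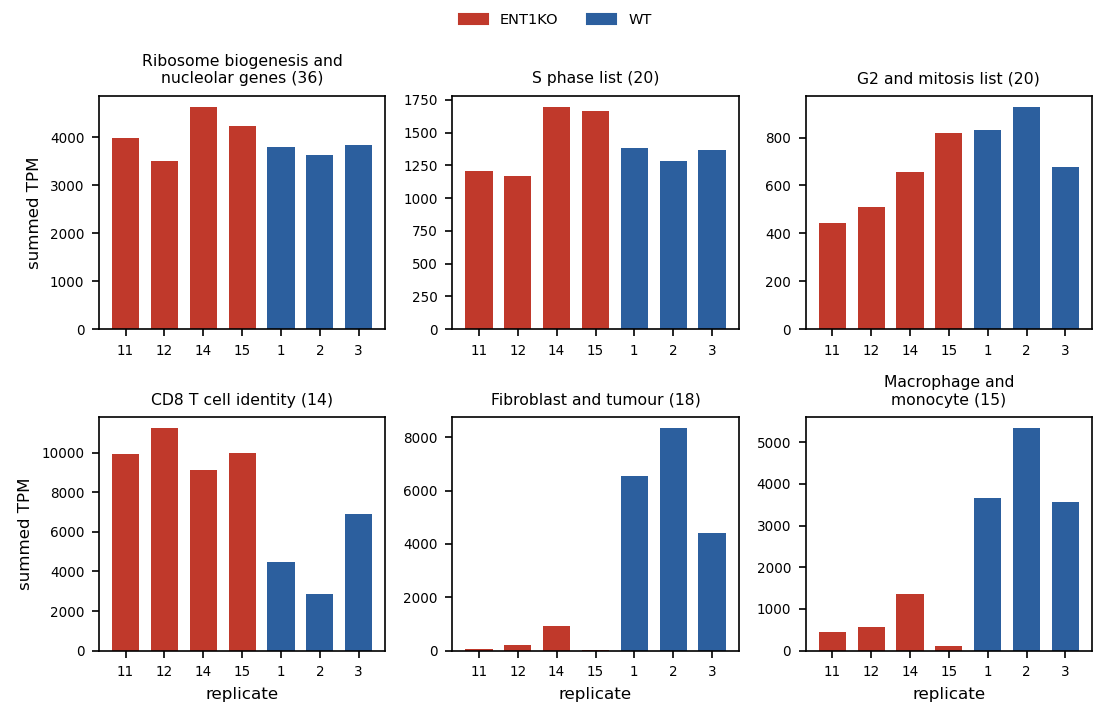
Summed TPM per library for the 36 ribosome biogenesis and nucleolar genes and for 5 other lists (bars start at 0, replicate numbers on the x axis, ENT1KO in red and WT in blue, number of genes in brackets). The ribosome biogenesis sums lie between 3510 and 4632 TPM in ENT1KO and between 3629 and 3831 TPM in WT libraries, while the fibroblast and macrophage sums are lowest in the 4 ENT1KO libraries.

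The genes that passed differed in coding length by direction, a property looked at after the values were seen. The longest annotated coding sequence was 540 bases for Nip7, 543 for Nop16 and 693 for Gar1, and 1614 for Gnl3, 2031 for Wdr43 and 2553 for Ddx21. Over the 36 genes the log2 difference and the coding length had a Spearman rank correlation of 0.49 across genes on TPM and 0.48 on normalized counts. It was 0.29 across 150 other ribosome biogenesis genes and 0.14 across the 11941 tested genes with a coding length. Genes share the same 7 libraries and are not independent replicates. The 8 genes of the set under 1000 bases had a median difference of -0.31, beside 0.12 for other ribosome biogenesis genes and -0.0025 for all tested genes of that length. The 14 genes of 2000 bases or more had a median of 0.24, beside 0.30 for other ribosome biogenesis genes and 0.25 for all tested genes of that length.

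**Figure D5:**
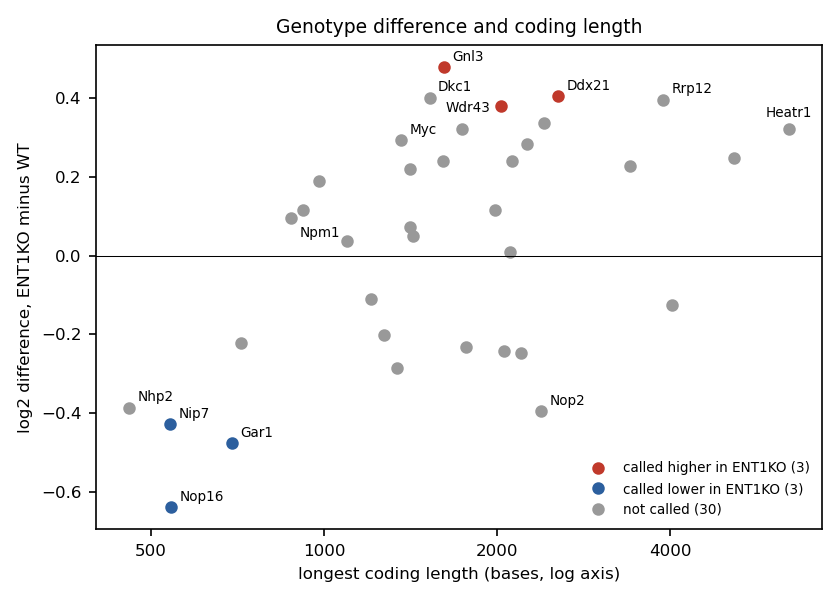
Log2 difference (ENT1KO minus WT, log2(TPM + 1) scale) against the longest coding length in bases (log axis) for the 36 genes, some of them labelled. The 3 genes called lower (blue) lie between 540 and 693 bases and the 3 called higher (red) between 1614 and 2553 bases.

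Of 150 other ribosome biogenesis genes tested, 36 were higher in ENT1KO and 10 were lower (limma-trend), 24.0% and 6.67%, with a median log2 difference of 0.15. Over all tested genes 27.5% were higher and 23.1% were lower. Leaving out 1 library gave 17 (without WT replicate 2) to 45 (without WT replicate 3) higher and 5 (without ENT1KO replicate 11 or WT replicate 2) to 12 (without ENT1KO replicate 14) lower. On TPM both shares were below those of all tested genes, and the counts in each direction depended on the scale. On normalized counts 19 were higher and 22 lower, beside 21.0% and 28.0% of all tested genes. After quantile normalization 27 were higher and 21 lower, beside 4559 and 3167 of all 13798 tested genes. The 4 with the largest increases on TPM were Mdn1, the giant ATPase that remodels large subunit precursors, the large subunit factor Nop53, the kinase Riok1 of small subunit maturation, and Nol8. Mdn1 had 30.1, 22.8, 29.1 and 22.6 TPM in ENT1KO libraries, against 13.3, 9.24 and 13.3 TPM in WT libraries, a log2 difference of 1.07 (limma-trend adjusted p = 0.00234). No ENT1KO library overlapped with WT. Nop53 (0.84), Riok1 (0.81) and Nol8 (0.75) followed, with groups that did not overlap either.

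The 4 with the largest decreases were Polr2f, a subunit shared by the nuclear RNA polymerases, Brix1, a large subunit assembly factor, Ruvbl1, an ATPase of snoRNP assembly, and Snu13, an RNA-binding core protein of box C/D snoRNPs. Polr2f had 74.2, 75.9, 91.3 and 76.8 TPM in ENT1KO libraries, against 109, 153 and 122 TPM in WT libraries, a log2 difference of -0.67 (limma-trend adjusted p = 0.00575). Snu13 had 90.3, 89.8, 106 and 94.6 TPM in ENT1KO libraries, against 139, 153 and 124 TPM in WT libraries, a log2 difference of -0.54 (limma-trend adjusted p = 0.00602). For both genes the highest ENT1KO library was below the lowest WT library. Snu13 thus fell while the other core proteins, Nop56, Nop58 and Fbl, had positive differences that did not pass. Whether Snu13 differed from these 3 was not tested.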

How the data were processed

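The authors deposited TPM per gene, and a table of the genotype comparison. In that table the sample columns are a signal deposited by the authors (reads per gene after division by a size factor), and they stand beside log2 fold changes, a test score and both raw and adjusted p-values, deposited by the authors. Per the submitters' processing notes, which give no roles, the build was GRCm39 and the tools were DESeq2 1.30.1, DESeq, RSEM, STAR 2.7.1a and 2 versions of Trimmomatic (0.35, 0.38). For the annotation release the sources used here give nothing. Reads per library follow from the step size of each normalized count column (100% of values whole multiples within 0.01). For 2 WT libraries the step was too near 1 to count as proof of whole reads, so no count test was run and the test for TPM was used.

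The 13798 genes that reached 1 TPM in 3 or more samples were tested with limma-trend and robust empirical Bayes on log2(TPM + 1), genotype as the only term (limma 3.58.1, R 4.3.3), after a check on simulated data. Differences on this scale understate the change of low genes. Precision is limited by 4 and 3 samples, and no counting intervals were computed. The 8 ratios were compared by exact two-sided permutation over 35 assignments. Positions are those of the deposited table (GRCm39), while promoter windows (RefSeq) and coding lengths (GENCODE M21, longest coding sequence, matched by gene ID) are of GRCm38. Pseudogene entries of Fbl and Mrto4 reached at most 1.21 and 0.69 TPM, so reads shared with those copies could move these genes little. Alternatives were quantile normalization, normalized counts, pseudocounts of 0.1 and 5, a looser filter (any value above 0 in 1 sample), a stricter one (5 TPM, 3 samples), array weights, the mean log2 level of a marker list as a covariate, subtraction of the mean log2 level of CD8 identity markers, and leaving out each library. All 36 genes are named, with Slc29a1, the 4 other ribosome biogenesis genes called higher and the 4 called lower with the largest difference at a mean of at least 5 TPM. Outside this rule, Nop10, 5 partners and antagonists of MYC and the RNA polymerase I genes outside the set were named after their values were seen. The 36 genes and all lists were chosen with earlier results of these data known. Plots used matplotlib 3.10.9 (Python 3.11.15).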

Additional observations from a re-analysis of the deposited data

Results flagged for a closer look

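Among 44 values with 4 ENT1KO libraries checked for a library far from the other 3, by the gap to its nearest neighbour over the whole range, 3 stood out, and chance gives about 1 in 20. All 3 were ENT1KO replicate 14, at 35.3 TPM for Nop16, 62.2 TPM for Gar1 and 91.9 TPM for Dkc1. The other 3 ENT1KO libraries lay between 26.1 and 26.8 TPM for Nop16, between 42.9 and 45.4 TPM for Gar1 and between 64.3 and 66.9 TPM for Dkc1. Replicate 14 was high in all 3 genes, so for Nop16 and Gar1 it was the ENT1KO library nearest to WT and for Dkc1 the one farthest from it, and the ratio of Gar1 to Dkc1 in that library (0.677) lay within the range of the other ENT1KO libraries.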

How the results depend on the processing

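Of the 36 genes, 10 kept their direction and their side of the threshold under all 14 alternatives run on each gene, and of 504 pairs of gene and alternative 429 did, 29 lost the call, 29 gained one and 17 changed sign. Nop16 kept its call in these 14 (limma-trend adjusted p 0.00178 to 0.0200). Gar1 and Nip7 lost theirs when 1 of 5 libraries each was left out (limma-trend adjusted p up to 0.0581 and 0.0647). Wdr43 lost its call only after quantile normalization of TPM (0.0823) and on normalized counts (0.197). Ddx21 lost its call in 8 settings (up to 0.1099) and Gnl3 in 9 (up to 0.243). Counts of the 36 genes higher and lower were 1 and 9 after quantile normalization, 0 and 8 on normalized counts, 0 and 9 in the authors' deposited table, 5 and 4 with array weights, and 1 and 3 with a filter above 0 in 1 sample. They were 0 and 0 with the mean log2 level of the fibroblast and tumour or of the macrophage and monocyte markers as a covariate. With those covariates 0 and 0, and 2 and 2, of all tested genes were called, and 1 of the 36 genes had an unadjusted p under 0.05 in each. All tested markers of both lists were without overlap between the genotypes, so these fits could hardly separate genotype from the covariate. The median of the 36 genes was -0.032 after quantile normalization, -0.037 on normalized counts and -1.08 against the CD8 T cell identity list. Leaving out 1 library gave 1 to 6 of the 36 genes higher and 1 to 6 lower. Without ENT1KO replicate 14 it was 1 higher and 6 lower, and without ENT1KO replicate 12 it was 6 higher and 1 lower. Leaving out 1 library gave 2315 to 3748 of all genes higher, and 17 to 45 other ribosome biogenesis genes higher and 5 to 12 lower. Of those other genes, 21 were lower after quantile normalization, 19 higher and 22 lower on normalized counts, and 23 higher with the filter above 0. Signs turned after quantile normalization for Ddx18 (-0.022), Ppan (-0.028), Nolc1 (-0.13), Ebna1bp2 (-0.036), Rrp9 (-0.055), Npm1 (-0.20) and Rrs1 (-0.0399). They turned on normalized counts for Ppan (-0.024), Nolc1 (-0.21), Polr1b (-0.033), Ebna1bp2 (-0.10), Rrp9 (-0.042), Npm1 (-0.076) and Rrs1 (-0.13), without ENT1KO replicate 14 for Nolc1 (-0.099) and Rrs1 (-0.023), and without WT replicate 1 for Nolc1 (-0.055). Leaving out 1 library at a time, Nolc1 ran between -0.099 and 0.079 and Rrs1 between -0.023 and 0.099. The cause was not tested for any of these. No paired analysis was possible because the ENT1KO and WT samples share no replicate numbers. With 4 and 3 samples the exact test cannot give less than 0.0286.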
